A study of Mus musculus with 18 samples.

Results

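The BCL2 family holds the proteins that set, at the mitochondrion, whether a T cell survives or dies. Its messages were followed for 10 genes: the survival members Bcl2, Bcl2l1 and Mcl1, the effectors Bax and Bak1, and the BH3-only members Bcl2l11, Bbc3, Pmaip1, Bid and Bad. They were chosen by name, and each probe whose RefSeq accession belongs to 1 of them was kept, which gave 16 probes of the 41174 on the array and 10 genes of the 17178 that could be named. All 16 probes passed the detection filter and were well above background on all 18 arrays.

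BCL2, BCL-XL (the product of Bcl2l1) and MCL1 hold BAX and BAK in check, and a BAX or BAK protein that escapes them opens the outer mitochondrial membrane and releases cytochrome c. The BH3-only proteins BIM (Bcl2l11), PUMA (Bbc3), NOXA (Pmaip1), BID and BAD bind the survival members and so tip the balance toward death. Resting T cells live on interleukin-7 and on weak contact of the antigen receptor with self ligands, and BIM opposed by BCL2 and MCL1 is a known control point of that survival.

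Total RNA of naive CD44low CD4+ T cells, sorted from spleen, was hybridised to 1-colour Agilent mouse arrays, 1 array for each of 18 C57BL/6 mice. All mice had been given tamoxifen for 4 weeks or for 1 week. LAT is the membrane adaptor that carries the antigen receptor signal onward, and the tyrosine that Y136F replaces recruits phospholipase C gamma 1. The KO mice are titled ERCre+ LAT f/- (a floxed allele over a null allele, so that Cre leaves no LAT), the Y136F mice ERCre+ LAT f/m (a floxed allele over the point mutant), and the WT mice ERCre- LAT f/-, with 3 mice in each of the 6 groups: KO at 4 weeks, KO at 1 week, Y136F at 4 weeks, Y136F at 1 week, WT at 4 weeks and WT at 1 week. The series text describes all mice as carrying Cre-ER, against the ERCre- of the WT titles, and the promoter that drives Cre is not given in the sources used here. The labels give female for each Y136F mouse, male for each KO and WT mouse at 4 weeks, and both sexes for KO and WT at 1 week.

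Levels are log2 signals minus the log2 of the array's 75th percentile, so a level of 0 is the 75th percentile and levels of different probes are not compared. The 75th percentiles ran between 1124 and 1896 intensity units, and 84.2% to 97.9% of the spots on an array were well above background. One array, KO 1 week replicate 3, had 7888 spots marked as outliers against 187 to 952 on the others. In 2 KO arrays (1 week replicate 1 and 4 weeks replicate 2) sex-linked genes went against the labelled sex, and the summed B cell marker level, on the linear scale, was uneven among KO arrays: 11.3, 4.47 and 10.4 at 4 weeks and 14.4, 4.66 and 4.89 at 1 week, beside 4.43 to 12.2 on the 12 arrays of Y136F and WT cells. Lat itself, read by a probe whose place relative to the deleted part is not known here, stood at 3.16, 2.62 and 2.34 in KO cells at 4 weeks, at 4.43, 3.86 and 3.93 in Y136F cells and at 3.29, 3.62 and 3.85 in WT cells. Its difference passed the test for KO against Y136F at 4 weeks (-1.37, limma with Benjamini-Hochberg adjustment over all probes, adjusted p = 0.00248). It did not pass for KO against WT at 4 weeks (-0.88, adjusted p = 0.203). At 1 week Lat read 2.32 and 2.73 in KO cells, with replicate 2 left out as an outlier. WT cells read 2.75, 3.47 and 3.37, and the difference of -0.67 did not pass either. Y136F cells stood above WT by 0.48 at 4 weeks and 1.05 at 1 week, neither passing. The call of KO against Y136F therefore does not read a loss in KO cells alone, and the KO label was not checked against WT by a call. With both times averaged, a comparison added after values were seen, Lat was higher in Y136F cells than in WT cells (0.77, adjusted p = 0.0242). Markers of CD4 T cells were well above background on all arrays, 10 of 10. So were all B cell, plasma cell, NK cell, myeloid and erythroid markers held by the array, so detection does not tell the cell types apart.

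The upstream sequences of Bcl2l11 and Bbc3 are shown first because these 2 BH3-only genes are known targets of FOXO factors. T cell receptor signals restrain FOXO factors. A further reason for the choice was that both stood below WT in Y136F cells at 1 week. Neither passed there, and 13 of the 16 member probes had a negative difference (median -0.11, beside -0.11 over all probes). The part of FOXO factors in these levels was not tested. The forkhead-type letters GTAAACA and the EGR-type letters GCGNGGGCG (EGR factors are induced by receptor signals) were searched on both strands in the 250 bases before each transcript start in RefSeq, build GRCm38.p6. Of 32851 such windows 3.17% held GTAAACA and 4.70% held GCGNGGGCG. The table held 15 windows for 9 of the 10 members, all except Pmaip1, and 2 of these windows held GTAAACA and 3 held GCGNGGGCG, all of them at Bcl2l11 or Bbc3. Another Bcl2l11 window (chr2:128127325-128127574) and another Bbc3 window (chr7:16310181-16310430) held neither. The windows that hold either are printed 5′ to 3′ with the matches in capitals.
Bcl2l11, chr2:128125788-128126037, plus strand: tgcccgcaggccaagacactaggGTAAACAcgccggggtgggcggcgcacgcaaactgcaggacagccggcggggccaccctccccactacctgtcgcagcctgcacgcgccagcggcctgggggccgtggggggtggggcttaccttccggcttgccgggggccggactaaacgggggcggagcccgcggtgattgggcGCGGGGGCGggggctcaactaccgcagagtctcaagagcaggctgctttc
Bbc3, chr7:16309333-16309582, plus strand: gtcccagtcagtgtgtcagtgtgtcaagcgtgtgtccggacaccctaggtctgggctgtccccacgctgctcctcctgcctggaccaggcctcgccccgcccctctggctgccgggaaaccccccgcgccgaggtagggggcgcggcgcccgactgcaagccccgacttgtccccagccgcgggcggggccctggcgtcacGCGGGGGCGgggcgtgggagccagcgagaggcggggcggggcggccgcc
Bbc3, chr7:16310011-16310260, plus strand: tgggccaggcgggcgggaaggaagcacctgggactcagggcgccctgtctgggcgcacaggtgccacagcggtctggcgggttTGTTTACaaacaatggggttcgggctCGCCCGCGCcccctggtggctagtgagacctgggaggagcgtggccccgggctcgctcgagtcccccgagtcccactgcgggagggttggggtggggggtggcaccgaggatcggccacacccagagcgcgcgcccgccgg
The Bcl2l11 window holds GTAAACA 227 bases before the start and the EGR-type letters 50 bases before it. The first Bbc3 window holds the EGR-type letters 49 bases before the start. The second Bbc3 window holds both on the minus strand, 167 and 141 bases before the start. The EGR-type matches at 50 and 49 bases overlap the GC box letters GGGCGG, and the one at 141 bases does not. A match of letters is a description of the window and says nothing about binding.

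Against WT, 1 member probe passed in 1 of the 4 comparisons of a mutant. None of the 16 probes passed the threshold (adjusted p under 0.05, limma, over all probes tested) in KO against WT at 4 weeks, where 0.0977% of all probes passed, or at 1 week, where 0.015% passed. None passed in Y136F against WT at 1 week (0.0125% of all probes), and 1 probe, higher, passed at 4 weeks (3.49% of all probes, 2.57% higher). At an unadjusted p under 0.05 the members numbered 2 and 1 of 16 for KO at 4 weeks and 1 week, beside 11.3% and 2.89% of all probes, and 7 and 4 of 16 for Y136F, beside 16.7% and 6.45%. Groups that did not overlap with WT, in either direction, were found for 4 and 1 of the 16 probes for KO at 4 weeks and 1 week, beside 23.8% and 5.02% of all probes, and for 7 and 5 for Y136F, beside 26.6% and 11.4%. The median difference over the 16 probes was 0.05 for KO and 0.16 for Y136F at 4 weeks and -0.02 and -0.11 at 1 week. The medians over all probes were -0.14, -0.16, -0.04 and -0.11 in the same order, a shift that differences are to be read against. Because the RNA came from bulk sorted cells, fewer cells that express a gene and less of its RNA per cell cannot be told apart.

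**Figure D1:**
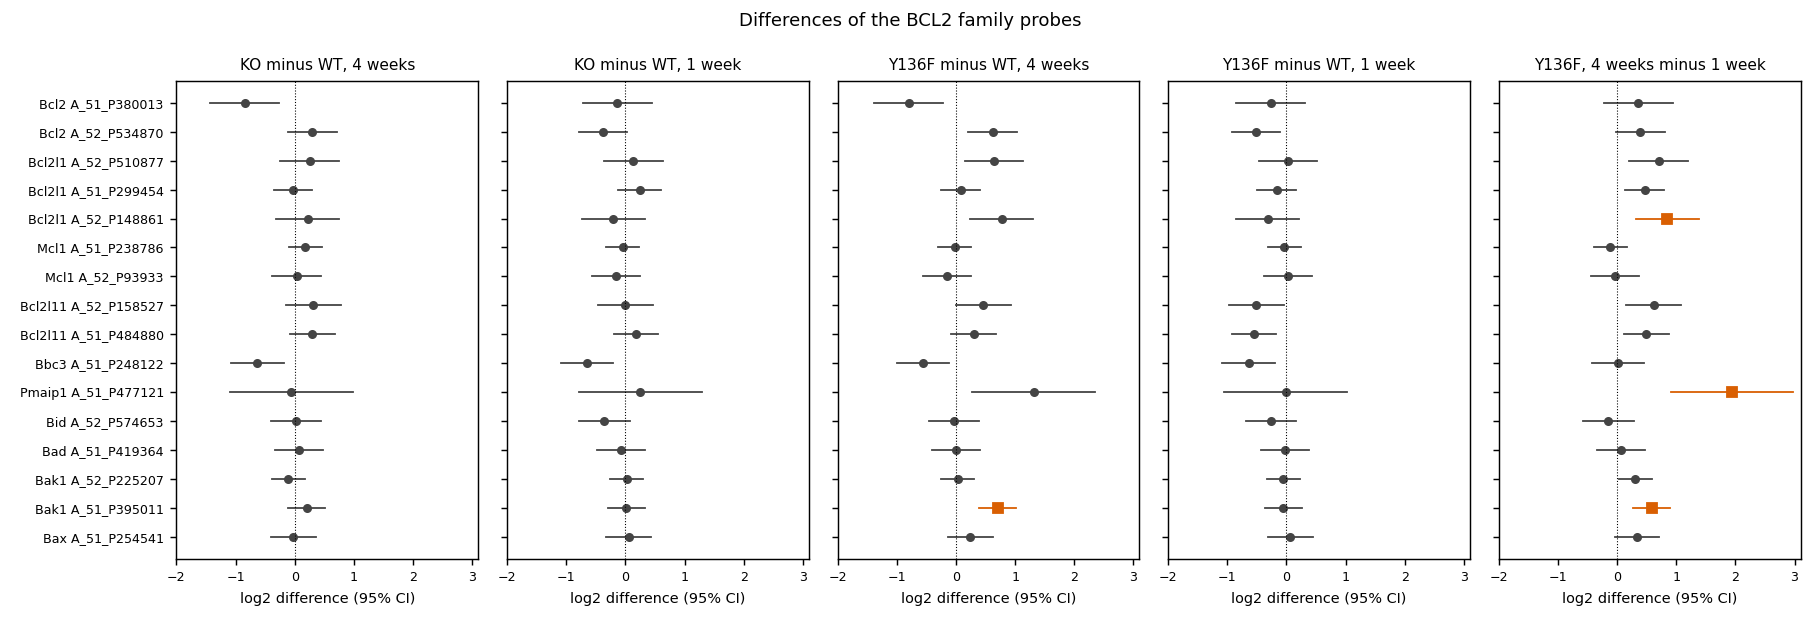
Log2 differences (x axis) of the 16 BCL2 family probes (rows) with 95% confidence intervals from limma, in 5 panels, 1 for each comparison. Orange squares are the probes with adjusted p under 0.05. They are Bak1 A_51_P395011 in Y136F minus WT at 4 weeks, and Bcl2l1 A_52_P148861, Pmaip1 and Bak1 A_51_P395011 in Y136F at 4 weeks minus 1 week, while Bbc3 lies left of 0 in each of the 4 panels against WT.

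The plot of differences with their intervals sets the 4 comparisons with WT beside the change within Y136F cells over time. In that last comparison 3 of 16 member probes passed, all higher (8.65% of all probes passed, 4.53% higher), and 10 of 16 had 3 arrays at 4 weeks that lay wholly above the 3 at 1 week, beside 21.5% of all probes. These 10 probes include all 3 of Bcl2l1 and both of Bak1 and of Bcl2l11, so they are not 10 separate genes. At an unadjusted p under 0.05 the members numbered 8 of 16, beside 25.2% of all probes. The median member difference was 0.38, beside 0.11 over all probes. KO cells and WT cells gave no call between 4 weeks and 1 week, where no probe of the array passed (0% each). At an unadjusted p under 0.05 no member was counted in KO cells, beside 0.566% of all probes, and 2 in WT cells, beside 19.1%. All Y136F mice were female, so labelled sex does not vary in this comparison.

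Bcl2, a survival gene of resting T cells, gave opposite readings from its 2 probes. Probe A_51_P380013 stood at 5.90, 5.14 and 5.66 in KO cells at 4 weeks and at 5.74, 5.96 and 5.15 in Y136F cells, against 6.08, 6.65 and 6.51 in WT cells. All WT arrays lay above all mutant arrays at that time. The differences were -0.85 ± 0.28 (SE) for KO and -0.80 ± 0.28 for Y136F, and neither passed (adjusted p = 0.305 and 0.145, limma). At 1 week the same probe read 5.10, 5.36 and 5.68 in KO cells and 5.18, 5.08 and 5.50 in Y136F cells, against 5.19, 6.13 and 5.23 in WT cells, and the groups overlapped.

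The second Bcl2 probe, A_52_P534870, is printed in 10 spots per array, whose median SD on an array was 0.0656. It read 2.27, 1.96 and 2.0 in Y136F cells at 4 weeks, against 1.78, 1.38 and 1.20 in WT cells, so that here the mutant arrays were the higher ones. At 1 week it read 1.66, 1.53 and 1.86 in Y136F cells, against 2.24, 2.08 and 2.27 in WT cells, with the mutant arrays all lower. The difference between Y136F and WT was 0.62 ± 0.20 at 4 weeks (adjusted p = 0.100) and -0.51 ± 0.20 at 1 week (adjusted p = 0.626). The change of that difference between the times was 1.13 ± 0.28 and missed the threshold (adjusted p = 0.0776, limma). No member passed in that test of change (0.6% of all probes for Y136F, 0% for KO), where 5 members for Y136F and 1 for KO had an unadjusted p under 0.05, beside 9.23% and 5.28% of all probes.

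The 2 probes also differed in sign between the times in WT cells. Between 4 weeks and 1 week in WT cells the first Bcl2 probe differed by 0.89 ± 0.28 and the second by -0.74 ± 0.20 (adjusted p = 0.148 and 0.118). Over the 11 comparisons the 2 probes had the same sign in 5. Which transcript form each probe reads is not given in the sources used here, and no direction is given for Bcl2 as a gene.

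Bcl2l1, which encodes BCL-XL and is known to be induced when T cells are activated, read higher in Y136F cells at 4 weeks than at 1 week on each of its 3 probes, and 1 of the 3 differences passed. Probe A_52_P148861, a dim probe in 10 spots with a median SD of 0.0963 on an array, read -2.84, -3.02 and -2.89 at 4 weeks against -3.77, -3.78 and -3.75 at 1 week. Its difference of 0.85 ± 0.25 passed (1.80-fold, adjusted p = 0.0450, limma). It passed in 9 of 22 alternative analyses and missed the threshold when any 1 of the 6 arrays was left out (adjusted p 0.0948 to 0.139).

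The brightest Bcl2l1 probe, A_52_P510877, read 3.0, 2.91 and 3.15 in Y136F cells at 4 weeks against 2.44, 2.20 and 2.32 at 1 week, a difference of 0.70 ± 0.23 (adjusted p = 0.0714). The remaining probe, A_51_P299454, differed by 0.47 ± 0.15 (adjusted p = 0.0697). On all 3 probes the 2 times did not overlap. Against WT at 4 weeks the differences of Y136F were 0.77 ± 0.25, 0.65 ± 0.23 and 0.08 ± 0.15 in the order dim, brightest and remaining (adjusted p = 0.120, 0.168 and 0.807), so that 1 of the 3 probes showed next to no difference. In KO cells against WT at 4 weeks the same probes differed by 0.22, 0.25 and -0.03. The remaining probe was fitted without KO 1 week replicate 3, whose spot was marked as an outlier.

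Mcl1, a short-lived survival protein that naive T cells need, varied least among the survival members. Its brightest probe, A_51_P238786, read 4.99, 4.85 and 4.74 in KO cells at 4 weeks and 4.66, 4.65 and 4.67 in Y136F cells, against 4.66, 4.67 and 4.72 in WT cells. The KO arrays lay just above the WT arrays, and the Y136F arrays at their lower end. Differences from WT were 0.18 for KO at 4 weeks (95% interval -0.10 to 0.46), -0.02 for Y136F at 4 weeks (-0.30 to 0.26), -0.05 for KO at 1 week and -0.04 for Y136F at 1 week. The 6 group means of this probe spanned 0.20 log2 units, and those of the second probe, A_52_P93933, 0.32.

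**Figure D2:**
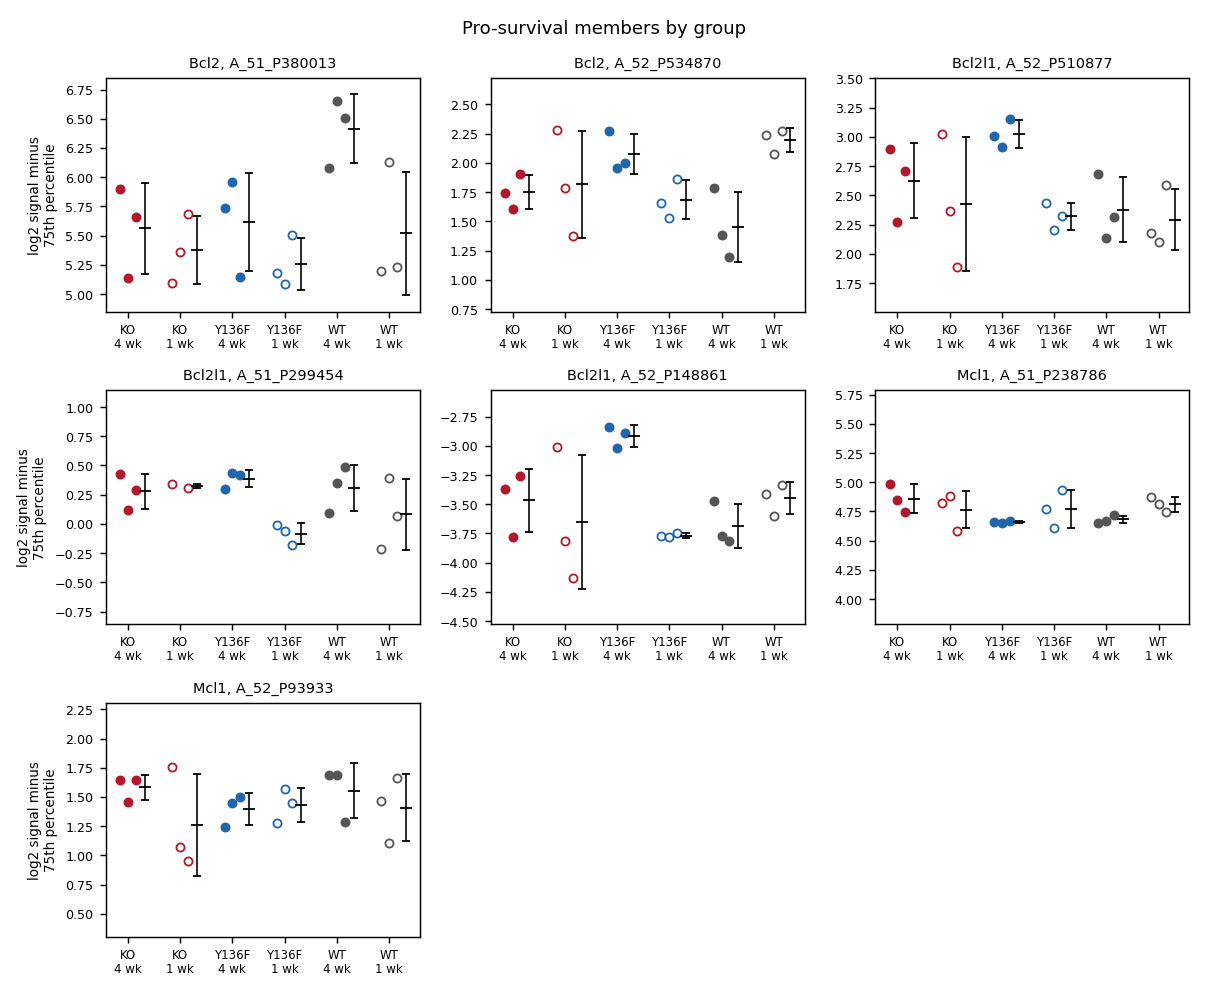
Log2 level minus the array's 75th percentile (y axis) of the 7 probes of Bcl2, Bcl2l1 and Mcl1 in the 6 groups (x axis), 1 point per array, filled at 4 weeks and open at 1 week, with mean and SD as bars. The 2 Bcl2 probes order Y136F and WT at 4 weeks in opposite ways, the 3 Bcl2l1 probes are higher in Y136F cells at 4 weeks than at 1 week, and Mcl1 is nearly flat on A_51_P238786.

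In the plot of the survival probes none passed against WT in either mutant. The probes of Bcl2, and likewise those of Bcl2l1, shared a sign in 5 of 11 comparisons. Of the effectors, Bak1 held the single call against WT. Its probe A_51_P395011 read 0.12, 0.31 and 0.41 in Y136F cells at 4 weeks, against -0.44, -0.46 and -0.39 in WT cells. The groups were far apart for their spread, and the difference of 0.71 ± 0.15 passed (1.63-fold, adjusted p = 0.0101, limma). Within the 3 slides that each held a Y136F and a WT array at 4 weeks the difference was 0.77, 0.80 and 0.56.

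The other Bak1 probe, A_52_P225207, the brighter of both, read 1.90, 1.90 and 1.69 in Y136F cells at 4 weeks, against 1.61, 1.78 and 1.99 in WT cells. These overlapped, with a difference of 0.03 ± 0.13 (95% interval -0.25 to 0.31). The call for A_51_P395011 was lost with labelled sex as a term (0.62, adjusted p = 0.332), with arrays scaled on the median (0.80, adjusted p = 0.0790), without WT 4 weeks replicate 2 (adjusted p = 0.0505) and without Y136F 4 weeks replicate 3 (adjusted p = 0.0666). The sex term was estimated only from KO and WT cells at 1 week, where labelled sex varied within a group. The same probe stood at -0.28, -0.29 and -0.12 in KO cells at 4 weeks, just above WT, and at -0.41, -0.40 and -0.11 in Y136F cells at 1 week.

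Over time in Y136F cells Bak1 A_51_P395011 differed by 0.59 ± 0.15 (4 weeks minus 1 week, adjusted p = 0.0202) and A_52_P225207 by 0.30 ± 0.13 (adjusted p = 0.163), both with no overlap. That call of the first probe was lost with slide as a fixed term (0.56, adjusted p = 0.121), with median scaling (0.45, adjusted p = 0.237) and without any 1 of 4 of the 6 arrays (adjusted p 0.0730 to 0.0930). KO cells at 4 weeks were below Y136F cells on the first probe (-0.51 ± 0.15, adjusted p = 0.0752), a comparison in which no member passed (3.53% of all probes at 4 weeks, 0% at 1 week) and in which 3 members had an unadjusted p under 0.05 at each time, beside 13.2% and 6.03% of all probes.

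Bax, the second effector, is read by 1 probe in 10 spots (median SD on an array 0.0666). It read -0.56, -0.78 and -0.41 in KO cells at 4 weeks and -0.45, -0.30 and -0.18 in Y136F cells, against -0.59, -0.46 and -0.62 in WT cells. The Y136F arrays lay just above those of WT, and the KO arrays on both sides of them. Differences were -0.03 ± 0.18 for KO and 0.25 ± 0.18 for Y136F (adjusted p = 0.943 and 0.497), and 0.06 for both mutants at 1 week.

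**Figure D3:**
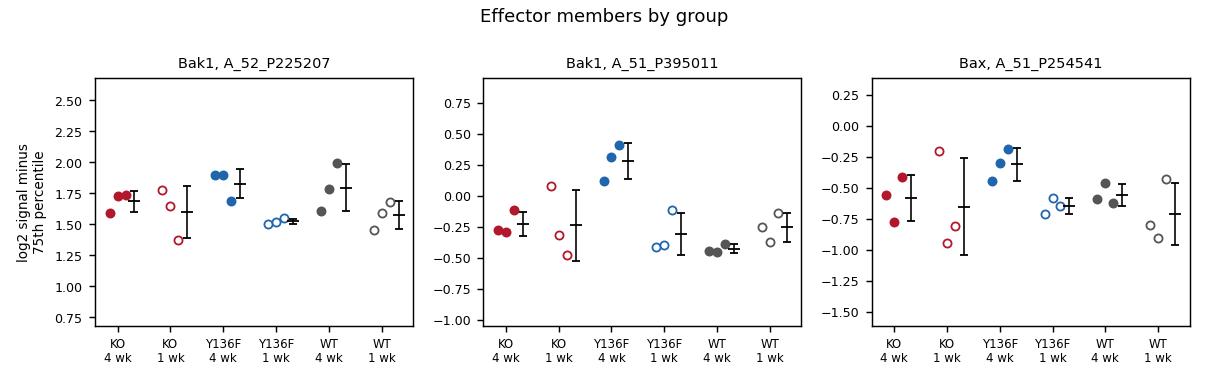
Log2 level minus the array's 75th percentile (y axis) of the 3 probes of Bak1 and Bax in the 6 groups (x axis), 1 point per array, filled at 4 weeks and open at 1 week, with mean and SD as bars. Bak1 A_51_P395011 is at 0.12 to 0.41 in Y136F cells at 4 weeks and at -0.46 to -0.39 in WT cells, whereas A_52_P225207 overlaps between them.

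The plot of the effector probes shows that the Bak1 call rests on 1 of 2 probes. Among the BH3-only members Pmaip1, the gene of NOXA, which binds MCL1, spread most: its 6 group means spanned 1.94 log2 units, the widest of the 16 probes. It read 0.85, 0.07 and 0.61 in Y136F cells at 4 weeks, against -1.72, -0.73 and -1.85 at 1 week. The times did not overlap and the difference was 1.94 ± 0.49 (3.84-fold, adjusted p = 0.0203, limma).

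That difference was 1.20 with slide as a fixed term (adjusted p = 0.292), and 0.80 on the 1 slide that held a Y136F array of each time. It missed the threshold without both arrays of the slide with the fewest detected spots (1.73, adjusted p = 0.0885), and without any 1 of 4 arrays (adjusted p 0.0559 to 0.0918). In WT cells at 4 weeks Pmaip1 read -0.48, -0.90 and -1.04, below all 3 Y136F arrays at that time, and the difference of 1.32 ± 0.49 did not pass (2.49-fold, adjusted p = 0.183). Within slides it was 0.97, 1.65 and 1.33.

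KO cells were uneven for Pmaip1. They read -0.48, -1.81 and -0.32 at 4 weeks and 0.35, -2.0 and -1.85 at 1 week, against -1.50, -1.59 and -1.18 in WT cells at 1 week. The 0.35 belongs to KO 1 week replicate 1 and the -1.81 to KO 4 weeks replicate 2, the arrays with sex-linked genes against their label. The KO arrays with the higher B cell marker sums (11.3 and 10.4 at 4 weeks, 14.4 at 1 week) were those with the higher Pmaip1 of their group. Likewise the Y136F array with the highest B cell sum of its group (12.2 at 4 weeks, 9.04 at 1 week) had the highest Pmaip1 of that group, 0.85 and -0.73. In WT cells the highest B cell sums, 9.04 at 4 weeks and 5.43 at 1 week, stood beside Pmaip1 levels of -0.90 and -1.59, which were not the highest of their groups. The B cell list was not alone in setting those KO arrays apart. Memory and effector, regulatory T cell, plasma cell, NK cell and erythroid sums were also higher on them at both times. The memory and effector sums were 112 and 81.7 against 63.3 at 4 weeks, and 117 against 77.1 and 80.0 at 1 week. CD4, CD8, naive, proliferation and myeloid sums did not have this order at both times. The part of RNA of B cells or of these other cell types in the Pmaip1 values was not tested.

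Bbc3, the gene of PUMA, was the 1 member below WT by a like amount in both mutants at both times. It read 1.15, 1.06 and 1.44 in KO cells and 1.31, 1.28 and 1.27 in Y136F cells at 4 weeks, against 1.24, 2.05 and 2.24 in WT cells. At 1 week it read 1.39, 1.36 and 1.03 in KO cells and 0.98, 1.33 and 1.51 in Y136F cells, against 1.94, 2.06 and 1.73 in WT cells. All mutant arrays lay below all WT arrays at 1 week, and at 4 weeks WT replicate 1 alone lay among the mutants.

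The differences of Bbc3 were -0.63 ± 0.21 for KO and -0.56 ± 0.21 for Y136F at 4 weeks, and -0.65 ± 0.21 and -0.64 ± 0.21 at 1 week. None passed (adjusted p = 0.314, 0.183, 1.00 and 0.459, limma). The same WT arrays serve both mutants at each time, so the comparisons at a time are not independent. The mean of both times, a comparison added after these values were seen, was -0.64 ± 0.15 for KO (0.641-fold, adjusted p = 0.0941) and -0.60 ± 0.15 for Y136F (0.660-fold, adjusted p = 0.0455). It gave no other member call, with 0.324% of all probes passing for KO and 1.9% for Y136F (0.595% lower).

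The Y136F call of Bbc3 for the mean of both times held in 10 of 29 alternative analyses, and the direction in 29 of 29. Its adjusted p ran from 0.00201 to 0.238 (limma). Settings that lost the call included labelled sex as a term, normexp background correction, the authors' deposited values and outlier spots kept. No intensity trend and median scaling lost it too. By label all Y136F mice were female and all WT mice at 4 weeks male. For KO that mean passed in 2 of 29 (adjusted p 0.00443 to 0.400), with the same direction in 29. Leaving out WT 4 weeks replicate 1, the WT array that lay among the mutants, necessarily widened the differences. That fit gave -0.79 for KO, -0.75 for Y136F, and -0.86 for Y136F at 4 weeks alone. Its p-values are not given, since the array was singled out by its Bbc3 level. KO and Y136F cells differed by -0.07 at 4 weeks (95% interval -0.51 to 0.37) and by -0.01 at 1 week (-0.46 to 0.43). The Bbc3 windows printed above were chosen because they hold a match, and whether the letters bear on the Bbc3 level was not tested.

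Bcl2l11, the gene of BIM, behaved alike on both of its probes, which had the same sign in 11 of 11 comparisons. Probe A_52_P158527 read 1.03, 1.22 and 1.59 in Y136F cells at 4 weeks against 0.80, 0.61 and 1.04 in WT cells, and 0.79, 0.54 and 0.65 in Y136F cells at 1 week against 1.16, 1.22 and 1.13 in WT cells. At 1 week all Y136F arrays were the lower ones on both probes, and at 4 weeks the groups met. The differences between Y136F and WT were 0.46 ± 0.22 on this probe and 0.30 ± 0.18 on A_51_P484880 at 4 weeks, and -0.51 ± 0.22 and -0.55 ± 0.18 at 1 week. None passed (adjusted p = 0.304, 0.406, 0.732 and 0.454).

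The change of this difference between the times was 0.97 ± 0.31 and 0.85 ± 0.25 (adjusted p = 0.220 and 0.167). Within Y136F cells Bcl2l11 was 0.62 ± 0.22 and 0.50 ± 0.18 higher at 4 weeks than at 1 week, without overlap and without passing (adjusted p = 0.0914 and 0.0941). In KO cells at 1 week A_51_P484880 read -0.48, -1.07 and -1.1, against -1.69, -1.71 and -1.43 in Y136F cells, a difference of 0.73 ± 0.18 (adjusted p = 0.818 in a comparison where no probe passed). The -0.48 is again KO 1 week replicate 1.

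Bid, which caspase 8 cuts after death receptor signals, and Bad, which growth factor kinases silence, had no comparison that passed. Bid read -0.85, -0.28 and -0.77 in KO cells and -0.64, -0.80 and -0.61 in Y136F cells at 4 weeks, against -0.45, -0.71 and -0.79 in WT cells. At 1 week it differed from WT by -0.36 ± 0.20 in KO cells and -0.26 ± 0.20 in Y136F cells (adjusted p = 1.00 and 0.874). Bad had the narrowest span of group means, 0.17, and its 4 differences from WT lay between -0.08 and 0.06.

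**Figure D4:**
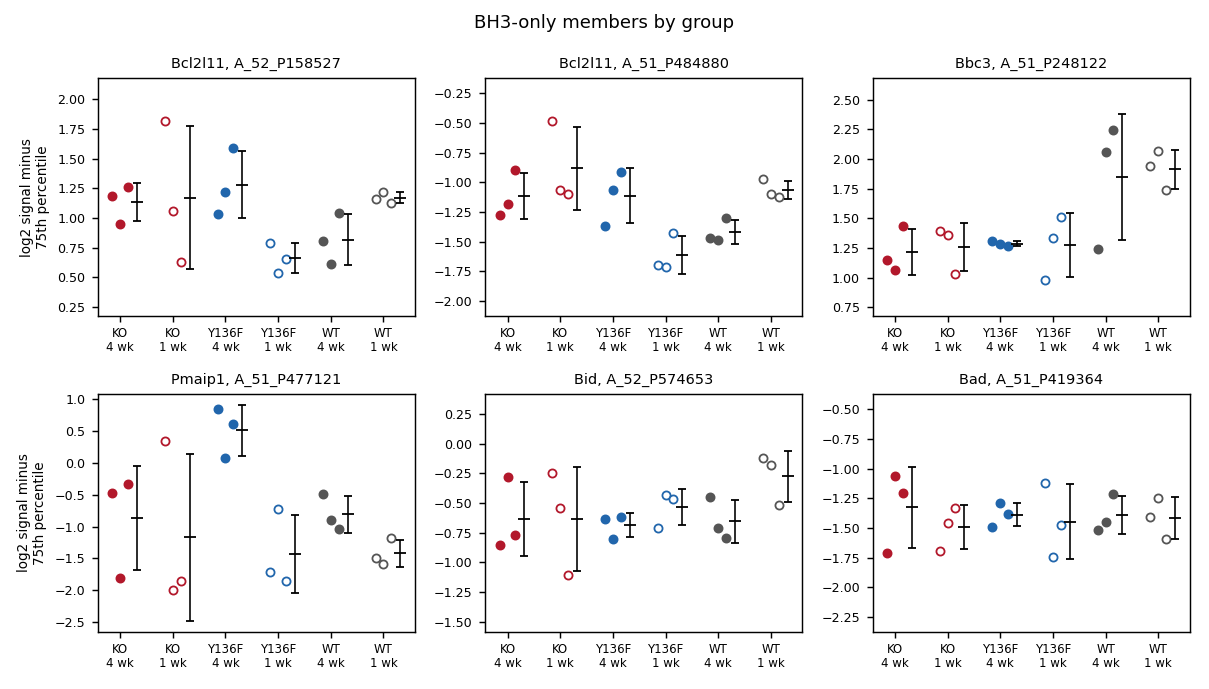
Log2 level minus the array's 75th percentile (y axis) of the 6 probes of Bcl2l11, Bbc3, Pmaip1, Bid and Bad in the 6 groups (x axis), 1 point per array, filled at 4 weeks and open at 1 week, with mean and SD as bars. Bbc3 is lower in all 4 mutant groups than in WT save for 1 WT array at 1.24, and Pmaip1 is highest in Y136F cells at 4 weeks apart from the open KO point at 0.35.

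In the plot of the BH3-only probes the Y136F arrays at 4 weeks and at 1 week do not overlap for Pmaip1 and Bcl2l11, and overlap for Bbc3, Bid and Bad. These Y136F cells at 4 weeks also differed in other ways, in comparisons where 3.49% of all probes passed against WT and 8.65% over time. Of 12 proliferation genes 9 were higher than in WT, and their summed linear level was 26.1 to 28.2 against 9.27 to 10.7 in WT cells. Of 14 memory and effector genes 9 were higher (sum 163 to 186 against 113 to 158) and of 7 naive T cell genes 2 were lower (sum 78.2 to 87.0 against 109 to 121). Against Y136F cells at 1 week, 11 proliferation and 13 memory and effector genes were higher and 4 naive genes were lower. Of 5 plasma cell genes 2 were higher and 1 lower than in WT and 2 were higher than at 1 week, and their sum was 2.49 to 4.8 in Y136F cells at 4 weeks, 0.811 to 0.835 at 1 week and 1.82 to 1.87 in WT cells at 4 weeks. Of 7 regulatory T cell genes 3 were higher than at 1 week (sum 34.0 to 42.7 against 22.6 to 24.9) and none passed against WT (29.8 to 41.8). Of 5 NK cell genes 1 was higher than in WT and 2 were higher than at 1 week, with sums of 5.49 to 7.64 at 4 weeks, 4.86 to 6.60 at 1 week and 6.32 to 7.37 in WT cells. Of 8 myeloid genes 2 were higher than at 1 week, though their sums, 10.99 to 16.7 and 13.1 to 16.7, overlapped. No B cell gene of 8 passed, with sums of 7.69 to 12.2 at 4 weeks, 5.96 to 9.04 at 1 week and 6.98 to 9.04 in WT cells. With labelled sex as a term 1 proliferation, 3 memory and effector and 1 naive gene passed against WT, and with slide as a fixed term 5, 7 and 3 passed over time. All of these markers were well above background there, and their part in the Bak1, Bcl2l1 and Pmaip1 differences was not tested.

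The wider death and survival genes were read by 1 probe each, the brightest, and 12 of them passed in Y136F cells against WT at 4 weeks. Of all probes 3.49% passed in that comparison (2.57% higher), the share beside which the list counts against WT are to be read. All Y136F mice were female and all WT mice at 4 weeks male by label, and with labelled sex as a term only Sesn1 of the 12 passed (adjusted p = 0.0165), against 0.111 to 0.716 for the other 11. Labelled sex varied within a group only in KO and WT cells at 1 week, so the term was estimated from those groups. KO at 1 week holds an array with sex-linked genes against its label. The part of sex in these differences was not tested. In the other 3 comparisons of a mutant with WT no gene of the 5 lists passed. Of the other BCL2 family genes 11 of 16 were tested and 2 passed against WT, both higher: Bcl2a1c (1.69 ± 0.36, adjusted p = 0.0113) and Bcl2a1b (1.1 ± 0.25, adjusted p = 0.0163), copies of the survival gene A1. The A1 copies are nearly identical and a probe may read more than 1 of them, so which copy changed is uncertain. The median of the 11 was -0.06, beside -0.16 over all probes.

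Of 18 apoptosome and caspase genes 2 passed, both higher, with a median of 0.16. Birc5, whose product survivin is best known for its role in mitosis, differed by 2.03 ± 0.38 (adjusted p = 0.00960) with 3 Y136F and 2 WT arrays in the fit. Its call was lost with outlier spots kept, with the authors' deposited values and with slide as a fixed term. It was also lost with labelled sex as a term and without WT 4 weeks replicate 3. Apaf1, the scaffold that cytochrome c assembles, stood at 0.11 ± 0.16 in Y136F cells and -0.68 ± 0.17 in WT cells (SD, n = 3 each), a difference of 0.79 (adjusted p = 0.0121, limma).

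Of 11 death receptor genes 2 passed, both higher, with a median of -0.10. Fasl, the ligand of the death receptor FAS, stood at 0.52 ± 0.08 in Y136F cells and -0.72 ± 0.08 in WT cells (SD, n = 3 each, adjusted p = 0.00105, limma). Tnfsf10, the gene of TRAIL, was 0.94 higher (adjusted p = 0.0346). Over time in Y136F cells 1 of the 11 was higher and 2 were lower at 4 weeks than at 1 week, with a median of -0.22. Of all probes 8.65% passed in that comparison (4.53% higher), with a median of 0.11. Fasl was the higher one (1.25, adjusted p = 0.000584), and Casp8 (-0.74, adjusted p = 0.00440) and Tnfrsf1a (-0.76, adjusted p = 0.0191) the lower ones. With slide as a fixed term Fasl passed (1.12, adjusted p = 0.0208) and the other two did not.

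Of 15 p53 targets and regulators 3 were higher and 1 was lower in Y136F cells at 4 weeks than in WT, with a median of 0.00. The higher ones were Phlda3, an inhibitor of AKT (1.41, adjusted p = 0.0101), the cell cycle inhibitor Cdkn1a (0.84, adjusted p = 0.0163) and Ei24 (0.58, adjusted p = 0.0286), and the lower one was Sesn1 (-1.23, adjusted p = 0.00194), a stress gene that FOXO factors also induce. Pmaip1 and Bbc3 are p53 targets too. Their differences in this comparison had opposite signs (1.32 and -0.56), neither passed, and a part of p53 was not tested. Of 18 survival cytokine and FOXO genes 2 passed, both higher: Cish (1.09, adjusted p = 0.0151), a STAT5 target, and Jak3 (0.71, adjusted p = 0.0116), the kinase of the common gamma chain, with a median of 0.40. In KO cells against Y136F cells at 4 weeks 5 of the 18 differences of that list were positive and the median was -0.20, beside 0.03 over all probes. The 3 that passed, all higher, were Foxo1, Foxo3 and Foxp1, with differences of 0.64, 0.80 and 0.77 (adjusted p = 0.0143, 0.0152 and 0.0319, limma). Of all probes 3.53% passed in that comparison. None of these 3 genes passed with slide as a fixed term, with labelled sex as a term or with median scaling.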

How the data were processed

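Agilent scanner files of 18 arrays were used, 3 mice in each of 6 groups taken from the sample titles. Per the file headers, Feature Extraction 10.5.1.1 made the processed signal, an intensity after background correction, and the submitters' processing notes name Agilent Feature Extraction 10.5 and limma. The authors' deposited value table holds log2 values whose Spearman correlation with the scanner intensity was 0.995 to 0.998 per array and whose medians were 8.56 to 8.57; its normalization is not given in the sources used here, and it served as an alternative.

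The log2 intensity minus each array's 75th percentile over 43379 non-control spots was computed. Spots marked as outliers were left out and the spots of a probe averaged. Probes well above background on at least 3 arrays (39974) entered a limma fit (version 3.58.1, R 4.3.3; lmFit, then eBayes with an intensity trend) that held all 6 groups and left 12 residual degrees of freedom. Its two-sided p-values were adjusted by Benjamini-Hochberg across the probes of a comparison, with 0.05 as the threshold. Probes were named through RefSeq accessions (24844 probes). The method was run on simulated data with independent noise and changes placed in the Y136F 4 weeks group alone. That simulation held no slide or sex effects, so it cannot tell how calls depend on them. Each mouse gave 1 array, so errors hold mouse and array variation together, and 3 arrays a group limit the precision. Named genes were all 10 members, Lat, and from 5 gene lists the genes past the threshold in a mutant against WT, by the brightest probe. The values over time of Fasl, Casp8 and Tnfrsf1a and those of Foxo1, Foxo3 and Foxp1 in KO against Y136F cells were picked after their values were seen. No gene qualified for the planned likeness search.

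The members and lists were chosen with earlier results of these data known. Each of 5 slides was 1 scan. Same-numbered arrays did not deviate together: correlations of their deviations ran from -0.44 to 0.53 and in no comparison were all 3 above 0.1, so the replicate numbers were not taken as pairs. Alternatives covered background correction, normalization, filters, slide, sex, array weights, the groups in the fit and leaving out arrays.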

Additional observations from a re-analysis of the deposited data

Results flagged for a closer look

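Bcl2 probe A_52_P534870 lay below WT on every Y136F array at 1 week and above WT on every Y136F array at 4 weeks. The change of the difference was 1.13 on the log2 scale (95% interval 0.55 to 1.72), which missed the threshold (adjusted p = 0.0776, limma). It passed in 6 of 28 alternative analyses, among them quantile normalization, the authors' deposited table and the fit without WT 4 weeks replicate 1. The other Bcl2 probe, A_51_P380013, changed the other way (-0.53, adjusted p = 0.843, limma), so no change is given for Bcl2 as a gene. Bcl2l1 probe A_52_P148861 showed the same order of arrays as Bcl2 A_52_P534870, with a change of 1.09 (95% interval 0.34 to 1.85, adjusted p = 0.236).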

How the results depend on the processing

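Counts of member probes called were compared with 1 choice changed at a time. Of 5138 values of single probes none that passed reversed, 48 lost the threshold and 58 gained it, and 415 that passed in neither case changed sign or moved. Leaving out 1 array gave 0 to 3 calls for Y136F against WT at 4 weeks (1 in the analysis reported, 3 without WT 4 weeks replicate 1), 0 to 1 for the Y136F change of effect, 0 to 1 for Y136F over time (3 reported), 0 to 1 for each mutant with both times averaged and 0 for the others. For Y136F against WT at 4 weeks the count was 0 with 1 probe per gene, with labelled sex as a term and with median scaling, 2 with only the compared groups in the fit and 5 without the 2 KO arrays whose sex-linked genes oppose the label. For Y136F over time it was 0 with slide as a fixed term, 1 with 1 probe per gene, without the slide with the fewest detected spots and with median scaling, 6 with only the compared groups and 6 without those 2 KO arrays. For the Y136F change of effect it was 1 with quantile normalization and with the deposited table, 2 with only the compared groups and 3 without those 2 KO arrays, which also gave 1 for WT over time. Y136F with both times averaged had 0 (1 reported) with normexp, the deposited table, outlier spots kept, labelled sex, only the compared groups, no intensity trend, without that slide and with median scaling. Array weights (0.245 to 4.28) gave 5 for KO and 8 for Y136F against WT at 4 weeks, 1 for KO against Y136F at each time, 6 for the Y136F change, 2, 9 and 2 for KO, Y136F and WT over time, and 2 and 3 with both times averaged. With a replicate block, which the pairing check gave no ground for, the counts were 1 for Y136F against WT at 4 weeks and 3 for Y136F over time, and no other member count changed either. Calls over all probes ranged from 112 to 6374 (1393 reported) for Y136F against WT at 4 weeks, 5 to 4971 (39) for KO, 0 to 701 (5) and 0 to 371 (6) at 1 week, 270 to 3358 (1411) and 0 to 437 (0) for KO against Y136F, 69 to 1731 (239) and 0 to 6 (0) for the Y136F and KO changes, 821 to 11267 (3451), 0 to 1685 (0) and 0 to 1924 (0) for Y136F, KO and WT over time, and 26 to 9070 (757) and 57 to 5926 (129) for Y136F and KO averaged. The causes were not tested, except that the settings without arrays or with fewer groups hold fewer arrays. Female mice alone allowed only the comparisons at 1 week, with 0 calls. The 12 list genes named for Y136F against WT at 4 weeks kept their direction in all 23 alternatives and passed in 15 to 23 of them, 11 losing the call with labelled sex as a term. Lat passed for KO against Y136F at 4 weeks in 23 of 23, and for KO against WT at 4 weeks in 1 of 23.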
